A study of Arabidopsis thaliana with 163 samples.

Results

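The list of H3K36me3 domains of untreated Arabidopsis thaliana seedlings held 11816 regions, all of them on the 5 nuclear chromosomes, out of 74289 regions in the lists used here. Every nuclear row of the list was a member, and there were no organelle rows to leave out. The list was called on 3 merged PHILO ChIP-seq libraries of wild-type Col-0 (Columbia-0) against PHILO IgG, in a series of 163 samples. The labels hold 1 untreated IgG library of this experiment, which is taken here as the control; the files do not name the control, and the study's methods speak of merged IgG replicates. PHILO is a low-input, plate-based form of chromatin immunoprecipitation followed by sequencing. All 4 libraries came from whole seedlings 10 days old that had not been treated, so roots, hypocotyls, cotyledons and leaves were mixed in each. The IgG library carries that name in its title, while its antibody field names anti-H3K9ac; the title was followed. The authors merged the libraries before calling, so each domain has 1 ChIP count and 1 IgG count. No replicate error exists for any value below, and no test between samples could be made. Comparisons further down also use H3K9ac lists from Col-0 seedlings after 2 h of methyl jasmonate and their controls. They further use binding peaks of the transcription factor MYC2 from myc2 MYC2:MYC2-FLAG seedlings, treated likewise. The label fields of the MYC2 libraries name anti-H3K9ac, Col-0 and untreated, and their titles and the paper were followed.

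H3K36me3 is trimethylation of lysine 36 of histone H3. In Arabidopsis it is laid down mainly by the SET domain protein SDG8, also called EFS or ASHH2, over the bodies of genes that RNA polymerase II transcribes. It sits downstream of H3K4me3, which marks the start of active genes, and is generally found apart from H3K27me3, the Polycomb mark of silent developmental genes. At the flowering repressor FLC the exchange of H3K36me3 for H3K27me3 accompanies silencing by cold.

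The sequences upstream of 5 genes are shown because promoters of marked genes held the letters TGGGCC, on either strand, more often than promoters of unmarked genes, as described further down. All were picked for holding a match: the ribosomal protein genes had the highest log2 folds among those with 2 or more matches around the gene start and no other gene upstream, and the photosynthesis genes came first by locus number. Each run is the 250 bases before the annotated gene start in TAIR10, read 5′ to 3′ on the strand of the gene, with the motif in capitals. For the first 3, which code for ribosomal proteins and were marked, the capitals are TGGGCC on either strand. For the last 2, which code for photosynthetic proteins and were not marked, they are the G-box CACGTG. This string was not typical of unmarked genes: it occurred in 9.32% of marked and 6.09% of unmarked promoters. Of the photosystem and antenna list 35 of 43 genes were marked. RBCS2B lay under H3K27me3 and also under H3K4me3, each over 93.9%, and LHCB2.3 lay under H3K4me3 over 100%.
RPL18 (AT3G05590, cytosolic ribosomal protein L18), chr3:1621105-1621354, plus strand: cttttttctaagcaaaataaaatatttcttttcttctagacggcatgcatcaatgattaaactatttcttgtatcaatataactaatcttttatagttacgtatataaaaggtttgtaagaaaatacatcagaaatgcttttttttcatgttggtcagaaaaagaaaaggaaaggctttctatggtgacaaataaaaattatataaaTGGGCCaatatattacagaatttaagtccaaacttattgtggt
AT3G13120 (a ribosomal protein S10p/S20e family member), chr3:4221667-4221916, minus strand: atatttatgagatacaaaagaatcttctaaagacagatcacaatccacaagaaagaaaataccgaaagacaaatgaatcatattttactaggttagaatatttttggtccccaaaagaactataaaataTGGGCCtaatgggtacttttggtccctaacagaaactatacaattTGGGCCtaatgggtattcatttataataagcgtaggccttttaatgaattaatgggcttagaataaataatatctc
AT3G09630 (a ribosomal protein L4/L1 family member), chr3:2953443-2953692, plus strand: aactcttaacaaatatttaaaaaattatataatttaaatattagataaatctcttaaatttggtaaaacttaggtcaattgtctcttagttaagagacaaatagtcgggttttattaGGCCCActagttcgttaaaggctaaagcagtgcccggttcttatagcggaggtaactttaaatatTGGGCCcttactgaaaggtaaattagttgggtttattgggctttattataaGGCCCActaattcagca
LHCB2.3 (AT3G27690, an antenna protein of photosystem II), chr3:10255656-10255905, plus strand: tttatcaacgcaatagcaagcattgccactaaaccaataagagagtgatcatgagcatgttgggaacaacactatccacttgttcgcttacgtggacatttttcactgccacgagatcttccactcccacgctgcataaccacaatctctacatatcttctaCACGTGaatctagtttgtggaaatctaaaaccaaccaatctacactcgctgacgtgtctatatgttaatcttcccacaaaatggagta
RBCS2B (AT5G38420, a small subunit of Rubisco), chr5:15382072-15382321, minus strand: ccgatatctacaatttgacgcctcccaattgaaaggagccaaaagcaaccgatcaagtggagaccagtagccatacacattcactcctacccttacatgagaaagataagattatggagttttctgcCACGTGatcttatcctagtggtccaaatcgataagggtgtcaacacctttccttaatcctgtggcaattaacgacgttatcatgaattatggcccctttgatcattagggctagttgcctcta
The match in RPL18 began 43 bases before the gene start. AT3G13120 had matches 121 and 76 bases before it, and AT3G09630 had 3, the nearest 17 bases before the start. A match is a string of letters and no evidence of a bound factor.

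Domains that touched exactly 1 protein-coding gene were shorter than that gene, with medians of 2000 and 2857.5 bp. Over the whole list, the typical H3K36me3 domain was about as wide as the median protein-coding gene, 2078 bp. Its median width was 2200 bp (interquartile range 1600 to 3400, 5th to 95th percentile 800 to 6800, range 400 to 26400), against 1000 bp for the 15625 H3K4me3 domains, 1400 bp for the 14163 H3K9ac domains and 2600 bp for the 6054 H3K27me3 domains of the same untreated seedlings. Together the H3K36me3 domains covered 32.9 Mb, or 27.6% of the 119.1 Mb nuclear genome. They held 17817125 ChIP reads and 2339232 IgG reads. The deposited log2 fold over IgG, which scales the 2 counts by library totals that differed 2.12-fold, had a median of 1.82 (interquartile range 1.53 to 2.05, range 0.19 to 2.99). It was above 2 in 3516 domains and under 1 in 708. Domains were called in bins of 200 bp and stretches up to 600 bp apart were joined, so edges are known only to a bin and the narrowest gap left was 800 bp.

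Narrow domains were weaker. The 732 domains of 400 to 800 bp had a median log2 fold of 1.21, those of 1000 to 1200 bp 1.50, and those of 1800 to 2200 bp 1.90, after which the median stayed between 1.86 and 1.90 up to the widest class. The median IgG count per kb lay between 69.9 and 73.8 in all 7 width classes, while the ChIP count per kb was 352.5 in the narrowest and 568.5 at 1800 to 2200 bp. Of the narrowest class 66.8% covered no protein-coding gene by at least 50%.

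The strongest enrichment lay over genes of varied roles. GALS3 (AT4G20170), a galactan synthase of the cell wall, had the highest log2 fold, 2.99 (95% Clopper-Pearson interval 2.57 to 3.44), from 825 ChIP and 49 IgG counts in a 1200 bp domain over its 5′ part that took in 46.8% of the gene. Such intervals cover counting error only, since sequencing reads after PCR are not independent molecules. AT4G16535, annotated as a leukocyte receptor cluster-like protein, followed at 2.90 with 1408 and 89 counts. AT5G08670, a subunit gene of the mitochondrial ATP synthase family, had 2028 and 142 counts and a log2 fold of 2.75. Next came EMB1080 at 2.73, the methionine aminopeptidase gene MAP1A at 2.70 and GUN1, which acts in signaling from plastids to the nucleus, at 2.69. AT1G64190, of the 6-phosphogluconate dehydrogenase family, had 2.69, the RING/U-box gene AT3G19950 2.67, the serine hydroxymethyltransferase gene SHM7 2.67 and the bromodomain gene GTE8 2.67. None of these 10 domains covered more than 1 gene by 50%. AT3G19950 was also the strongest of the domains of exactly the median width, ahead of the nucleotide-sugar transporter gene AT1G34020 (2.66), the signal peptidase family gene Plsp2A (2.64), the plastid dicarboxylate transporter gene DIT2.1 (2.60) and the autophagy gene AtATG18a (2.58).

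Ranking by ChIP counts per kb gave other genes, and most of these had high IgG counts. The ribosomal protein gene AT1G77940 led with 924 ChIP counts per kb, but its domain held 166 IgG counts per kb against a median of 71.25 over all domains, and its log2 fold was 1.39. Its neighbor AT1G77930, a DnaJ-domain gene, had 851 and 136 counts per kb and a log2 fold of 1.57. AT5G52530 had 918 and 121, the exocyst gene SEC10 869 and 118, and the plastid dicarboxylate transporter gene DiT1 837 and 83. The log2 folds of these last were 1.84, 1.79 and 2.25, beside a median of 1.82 over all domains. The part of the IgG signal in this ranking was not tested.

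At the other end, the domain with the lowest log2 fold, 0.19 (−0.19 to 0.57) with 205 ChIP and 85 IgG counts, covered AT3G44430 and AT3G44435, both without an annotated function. The next lowest lay over KAN2, a regulator of leaf polarity (0.27), AT3G24255 (0.28), IDD11 (0.30) and CHIL, which assists flavonoid synthesis (0.30). The intervals of the 3 lowest included 0. The largest FDR in the list was 0.0321, and only 1 domain had an FDR above 0.001.

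The widest domains followed the longest genes. The domain over ATM, the kinase that answers DNA breaks, ran for 26400 bp at chr3:17801201-17827600 and covered 96.5% of a gene with 79 exons. It held 16198 ChIP and 1867 IgG counts (log2 fold 2.03). Domains of 25000, 24400 and 22400 bp likewise each lay over 1 gene: AT1G48090, annotated as a calcium-dependent lipid-binding protein, AT1G67120, a midasin-like ATPase of ribosome maturation, and AT4G17140, a pleckstrin homology domain protein. The remaining one of the 5 widest, 23600 bp on chromosome 3, spanned 9 genes from RBR1, the retinoblastoma-related cell cycle gene, to the ribosomal protein gene AT3G12370. In all, 128 domains were wider than 10 kb.

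Along marked genes the domains covered more of the 5′ end than of the 3′ end. A protein-coding gene was called marked when H3K36me3 domains covered at least 50% of its span, which held for 13510 of 27444 genes, or 49.2%, while 54.6% were touched by 1 bp or more. Over these genes, cut into 20 equal bins, 55.6% of the bases of the first bin lay in a domain, 97.3% of the fifth, 99.7% of the tenth, 78.4% of the fifteenth and 23.4% of the last. A single domain over at least 50% of a gene must include the middle of the gene. The height of the curve and its peak in the middle therefore follow largely from the call, while the difference between its 2 ends does not. In the 1030 domains with 1 partly covered gene, the middle of the domain lay at 30.5% of the gene. H3K4me3 over the same genes was highest in the third bin (91.2%) and had dropped to 29.5% by the tenth. H3K9ac was highest in the second bin (92.8%) and stood at 54.9% in the tenth. H3K27me3 did not exceed 1.32% in any bin.

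**Figure D1:**
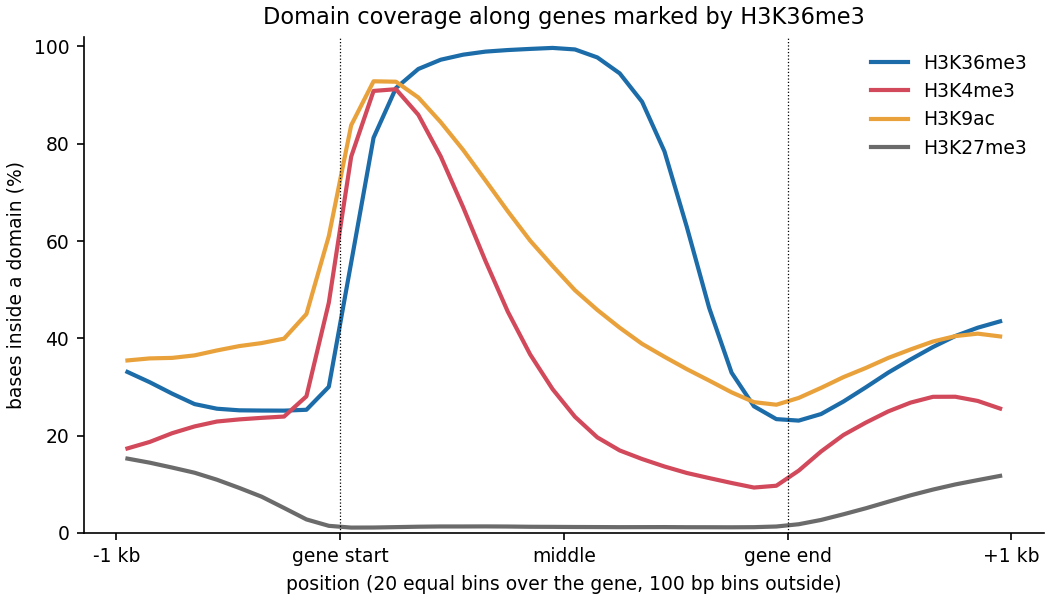
Percent of bases inside a domain of each of 4 marks (vertical axis) along the 13510 protein-coding genes marked by H3K36me3 (horizontal axis, 20 equal bins per gene and 100 bp bins over 1 kb to either side). H3K36me3 reached 99.7% in the tenth bin and fell to 23.4% in the last, whereas H3K4me3 and H3K9ac were highest in the third and second bins.

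The upstream edge lay at a similar distance from the gene start in genes of every length class, and the downstream edge did not keep its distance from the gene end. In the 9080 domains that touched exactly 1 protein-coding gene, the domain began 110 bp after the gene start (median, interquartile range 37 to 209), and 85.0% began after it. It ended 708 bp before the gene end (interquartile range 431 to 1048), and 97.7% ended before it. A domain that ran on into a neighboring gene touched more than 1 gene and was left out, so this selection favors edges inside the gene. Over all marked genes, 23.4% of the last bin and 23.1% of the first 100 bp downstream lay in a domain. Across quintiles of gene length the median start edge was 113, 107, 120, 113 and 100 bp, all within 1 bin of 200 bp. The uncovered stretch at the gene end was 294, 522, 725, 939 and 1176 bp from the shortest to the longest quintile. As a percent of the gene this stretch stayed between 18.3 and 26.1. The log2 fold also differed, from 1.69 in the shortest quintile to 1.99 in the longest.

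**Figure D2:**
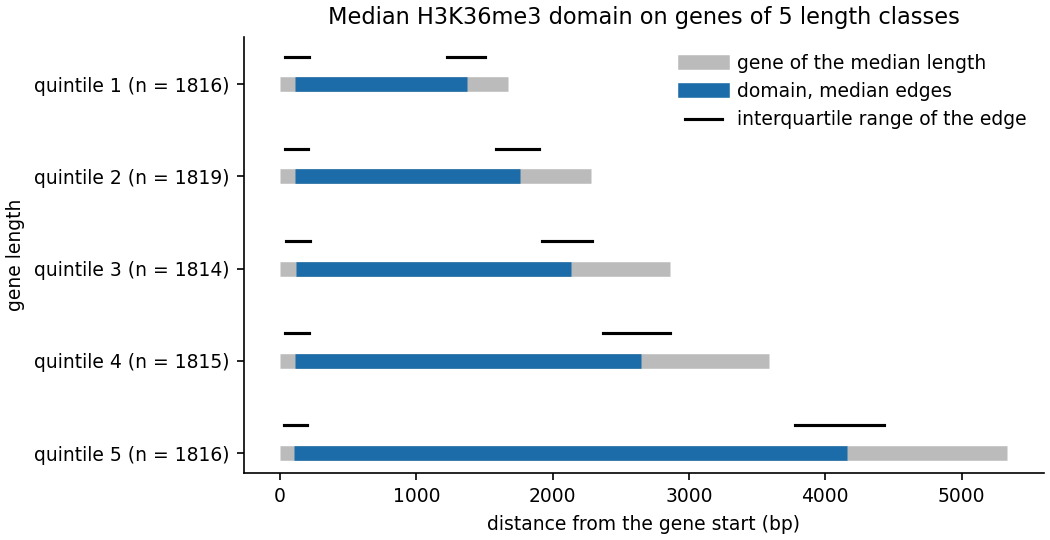
Median H3K36me3 domain (blue) on a gene of the median length (gray) in 5 classes of gene length, for domains that touch 1 protein-coding gene; the horizontal axis is distance from the gene start in bp, and black lines give the interquartile range of each edge. The start edge lies 100 to 120 bp into the gene in every class, and the uncovered 3′ stretch is 294 bp in the shortest class and 1176 bp in the longest.

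The start edge moved with the length of the first exon. Its median was 67 bp in the quintile of genes with the shortest first exons, then 90, 115, 145 and 160 bp. Genes with 1 exon had a median start edge of 149.5 bp and those with over 10 exons of 95 bp, while the log2 fold was 1.61 and 1.99. These steps are smaller than the caller's bin, so they describe averages over many genes and not the edge of any single domain. The other marks were placed differently in their own lists: among domains touching 1 gene, the median start edge of H3K4me3 was 28 bp and that of H3K9ac 1 bp after the gene start, and H3K27me3 domains began 135 bp before it. On the 8026 genes with 1 domain of each of H3K36me3 and H3K4me3, the H3K4me3 domain began first in 51.1%, both began in the same bin in 48.0%, and the H3K36me3 domain began first in 0.934%. The H3K36me3 domain was the wider in 83.5%.

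In base composition the domains were genic. Of their bases 61.1% were exon, 36.04% intron and 2.82% outside protein-coding genes, against 37.4%, 16.7% and 45.9% for the genome. The H3K4me3 list had 66.6% exon and 25.7% intron, and 51.9% of the bases of the H3K27me3 list were outside protein-coding genes. The median GC content of H3K36me3 domains was 39.3%, against 36.03% for the genome, but whole marked and unmarked genes hardly differed (38.9% and 38.7%).

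Long genes with many exons carried the mark more often. From the shortest to the longest length quintile the share of marked genes was 13.9, 38.4, 58.0, 64.4 and 71.5%. By exon number it was 26.2% of genes with 1 exon, 51.9% of those with 4 to 5 and 85.0% of those with over 20. A narrow gene can only hold a few bins of the caller, and how much of the length gradient comes from this was not tested.

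Genes expressed in most plant organs carried H3K36me3, and genes restricted to few organs mostly did not. The reference annotation lists, for 13487 genes (49.1%), the number of plant structures with expression. Of genes listed in 1 structure 24.7% were marked, and the share stayed low through 2 to 5 (21.9%) and 6 to 10 structures (19.8%). It was 53.4% at 16 to 20, 81.2% at 21 to 22, 91.2% at 23 to 24 and 91.7% above 24. H3K27me3 touched 49.3% of genes in the first of these classes and 4.31% in the last, beside 28.7% of all genes. The gradient was present at each gene length: among the shortest genes, up to 1597 bp, 9.05% were marked with 1 to 10 structures and 77.7% with 21 or more, and among the longest, from 2645 bp, the shares were 35.8% and 88.9%. The enrichment did not follow the same order. In domains over 1 gene the median log2 fold was 1.79 at 1 structure, 1.89 at 2 to 5, 1.57 at 6 to 10, 1.47 at 11 to 15 and 1.55 at 16 to 20, and then 1.84, 1.97 and 2.04 in the 3 broadest classes.

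**Figure D3:**
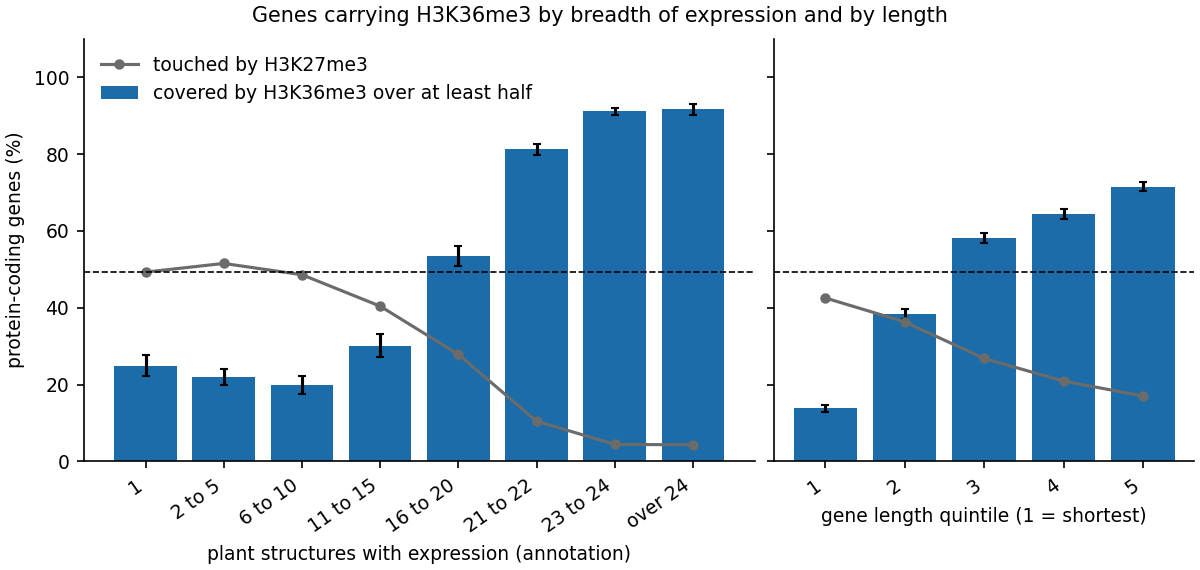
Percent of protein-coding genes marked by H3K36me3 (blue bars, with 95% Wilson intervals over genes) and touched by H3K27me3 (gray points), by number of plant structures with expression in the annotation and by quintile of gene length; the dashed line is the share of all genes marked, 49.2%. The marked share is 24.7% for genes of 1 structure and 91.7% above 24, and H3K27me3 runs the other way, from 49.3% to 4.31%.

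Among genes annotated to a single structure the share differed between structures, so the 24.7% of that class mixes unlike groups. Only 12 of 244 genes annotated to root alone were marked (4.92%), with H3K27me3 touching 69.3% of them. For flower the count was 2 of 76 (2.63%) and for sperm cell 7 of 73 (9.59%). Leaf had 17 of 58 (29.3%), stem 9 of 35 (25.7%) and pollen tube 9 of 38 (23.7%). In contrast, 29 of 37 guard cell genes (78.4%) and 108 of 163 cultured cell genes (66.3%) were marked. Seedlings hold roots, but in a whole seedling a mark borne by few cells cannot be told apart from a mark at low level in all.

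Annotated cell location separated genes as well. Shares were high for the Golgi apparatus (66 of 70, 94.3%), the nucleolus (166 of 182, 91.2%), the ribosome (270 of 306, 88.2%) and the cytosol (84.5%), followed by peroxisome (91 of 112, 81.25%), mitochondrion (78.1%) and chloroplast (77.8%). They were low for the endomembrane system (21.1% of 3755) and the extracellular region (6 of 77, 7.79%). Protein families showed the same spread. TPR-like proteins were marked in 229 of 268 cases (85.4%), PPR proteins, which edit and process organellar RNA, in 165 of 200 (82.5%), ARM repeat proteins in 80.9% and WD40 proteins in 78.3%. None of 87 DEFL peptides, 51 ECA1 gametogenesis proteins and 60 self-incompatibility S1 proteins was marked. Their genes had median lengths of 517, 357 and 552 bp.

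The named gene lists, which were matched by symbol or annotated product, ranged from 97.9% marked to 0% (seed and pollen markers) around the 49.2% of all genes. Machines of gene expression and the proteasome led, while RING and U-box ubiquitin ligase genes had 181 of 397 marked (45.6%). Of the proteasome, which degrades ubiquitinated proteins, 46 of 47 genes were marked; PBB1, a catalytic core subunit, had 1400 ChIP and 112 IgG counts (log2 fold 2.56), and the single unmarked gene was AT4G08140, a copy of 468 bp. Of 305 ribosomal protein genes, some of them for organelle ribosomes, 274 were marked (89.8%), among them EMB3113 (1302 and 99 counts, 2.63) and RPL18 (946 and 78, 2.52). The unmarked ones included HLL, at 0% coverage and with H3K4me3 over 38.5% of its length, and AT1G26880, at 47.1%. Splicing factors were marked in 50 of 59 cases (84.7%), with emb1507, a U5 snRNP helicase, at 5558 and 478 counts (2.46), RNA helicases in 58 of 70 (82.9%), nuclear pore proteins in 21 of 24 (87.5%) and tRNA synthetases in 50 of 64 (78.1%). ALATS, which charges alanine tRNA, had 4545 and 411 counts (2.38). Unmarked members were often short copies or lay under H3K27me3, as the threonyl-tRNA synthetase gene AT1G17960 did over 99.8% of its length. Of the 15 RNA helicase genes between the 25th and 75th percentile of gene length 10 were marked (66.7%, Wilson interval 41.7 to 84.8). The share of all genes of that length was 55.2%.

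**Figure D4:**
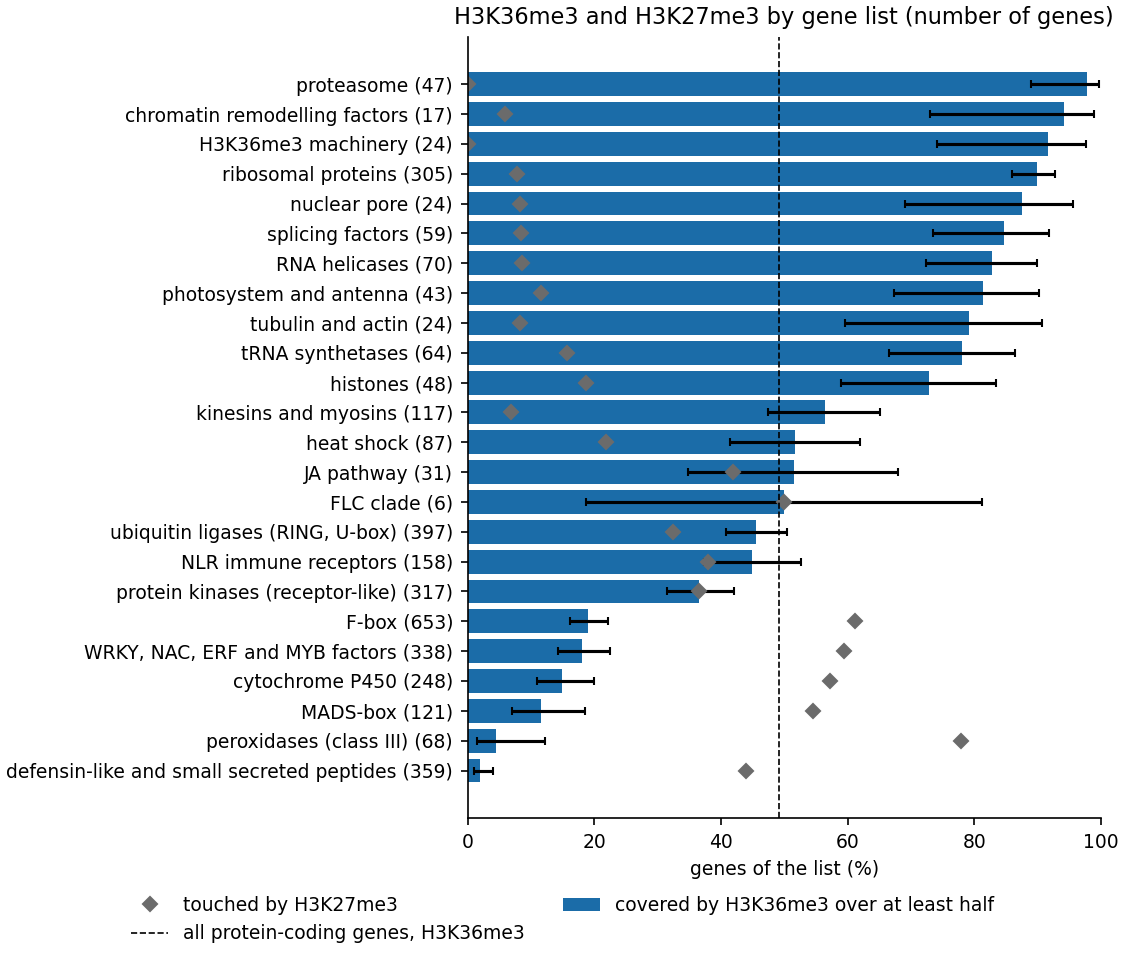
Percent of genes marked by H3K36me3 (blue bars, 95% Wilson intervals over genes) and touched by H3K27me3 (gray diamonds) in each gene list, with the number of genes in parentheses; the dashed line is the 49.2% of all protein-coding genes marked by H3K36me3. Proteasome, chromatin remodelling and ribosomal protein genes stand at 97.9, 94.1 and 89.8%, and peroxidases and secreted peptides at 4.41 and 1.95%.

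Some signaling and defense families fell below the genome share. Others stood above it, as the protein kinase superfamily did with 187 of 327 genes marked (57.2%) and protein phosphatases 2C with 42 of 60 (70%). Receptor-like kinases were marked in 116 of 317 cases (36.6%), with BRI1, the brassinosteroid receptor (2286 and 203 counts, 2.41), and FER (1379 and 126, 2.37) among the strongest. NLR immune receptors had 71 of 158 (44.9%, Wilson interval 37.4 to 52.7), an interval that includes the share of all genes. Of the 24 between the 25th and 75th percentile of gene length, 1323 to 3030 bp, 4 were marked (16.7%, 6.68 to 35.9). The share of all genes of that length was 55.2%. Cytochrome P450 genes had 14.9% of 248, class III peroxidases, which act in the cell wall, 3 of 68 (4.41%), and defensin-like and other small secreted peptides 7 of 359 (1.95%). The highest of these last, AT4G21720, shared its domain with NRPB2, a large subunit gene of RNA polymerase II. H3K27me3 touched 57.3% of the P450 genes and 77.9% of the peroxidases.

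Transcription factor families differed in their marked share. Homeodomain-like proteins had 34 of 73 genes marked (46.6%), near the share of all genes, and basic helix-loop-helix proteins 31 of 113 (27.4%). The WRKY, NAC, ERF and MYB list had 61 of 338 (18.0%), led by NAC017, which acts in mitochondrial stress signaling, with 1864 and 142 counts (2.63). MADS-box genes had 14 of 121 (11.6%), led by AGL16 (1912 and 151, 2.58). F-box genes, whose products select targets for ubiquitination, had 124 of 653 (18.99%), with the auxin receptor gene AFB5 at 1619 and 139 (2.46) and CPR1, which limits immune receptor levels, at 1339 and 119 (2.41). The F-box gene AT3G07870 was covered over 73.3% by H3K36me3 and over 77.4% by H3K27me3. Histone-fold genes were marked in 35 of 48 cases (72.9%), with HTA9, which codes for the variant H2A.Z, at 2.04, while LEC1, an embryo regulator with a histone fold, was at 0% and under H3K27me3 over 89.2%. Heat shock genes (45 of 87, 51.7%) and kinesins and myosins (66 of 117, 56.4%) stood near the genome share.

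Within the tubulin and actin genes, 19 of 24 (79.2%) were marked, beside 49.2% of all genes. The actin genes ACT2 and ACT7, expressed in vegetative organs, had log2 folds of 2.24 and 2.30. ACT4 and ACT9 had no H3K36me3 and lay under H3K27me3 over 89.1% and 100%, and ACT12 was covered over 2.03%. The other actin genes ACT1, ACT3 and ACT11 were marked, with 1.82, 1.63 and 1.77. The unmarked tubulins were TUB5 (38.5% covered, 203 ChIP and 33 IgG counts) and TUB1 (22.4%, 166 and 45).

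A list of 24 matched genes held the methyltransferases, demethylases and readers of the mark, and RNA polymerase II, its kinases and elongation factors. Of these, 22 were marked (91.7%), beside 49.2% of all genes. Between the 25th and 75th percentile of gene length 7 of 9 were marked (77.8%), beside 55.2% of all genes of that length. Among the methyltransferases, EFS (SDG8) was covered over 88.1% by a domain of 5790 ChIP and 546 IgG counts (log2 fold 2.32, 2.195 to 2.451). SDG25, also called ATXR7, had 2.22, ASHH3 (SDG7) 1.84 and ASHH1 (SDG26) 1.81, and SDG4 had the weakest domain of the list at 0.94 with 712 and 175 counts and no H3K4me3. ASHH4 (SDG24) had no domain of H3K36me3, H3K4me3 or H3K27me3. The demethylase genes JMJD5 (JMJ30), ELF6 and REF6 had 2.29, 1.96 and 1.68; of these, ELF6 and REF6 are better known for removing H3K27me3. The reader genes MRG2 (AT1G02740) and MRG1 (AT4G37280) had 2.07 and 1.82. Of the elongation factors, the PAF1 complex genes ELF7, ELF8, VIP3, VIP4 and PHP (CDC73) had between 1.76 and 2.11, IWS1 2.05, SPT16 1.97 and its partner gene HMG (SSRP1) 2.08. VIP5 had a strong domain (973 and 89 counts, 2.37) that stopped at 48.8% of the gene and so just missed the call. The polymerase subunits NRPB1 and NRPB2 had 2.22 and 2.18, and the kinases CDKC;1 and CDKC2 2.03 and 1.94.

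Chromatin remodelling genes were marked in 16 of 17 cases (94.1%), beside 49.2% of all genes. They were long, with a median of 6480 bp, and 71.5% of all genes in the longest length quintile were marked. The CHD gene CHR5 was highest (8017 and 750 counts, 2.33), followed by PKL (2.30) and INO80 (2.22). PKR2, the close relative of PKL, had no H3K36me3 and lay under H3K27me3 over 89.1%.

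The FLC clade, MADS-box repressors of flowering, was split between the 2 marks. MAF1 (FLM) was covered by H3K36me3 over 71.5% (2262 and 251 counts, log2 fold 2.09), AGL31 (MAF2) over 76.5% (2092 and 228, 2.11) and MAF3 over 78.0% (2182 and 218, 2.24), and none of the 3 was touched by H3K27me3. FLC itself, MAF4 and MAF5 had no H3K36me3 domain and lay under H3K27me3 over 99.7, 79.8 and 78.2%. H3K9ac domains touched all 6 genes, those under H3K27me3 included, beside 66.1% of all genes. MAF2 to MAF5 stand in a row on chromosome 5, between 25982254 and 26002619, so the change of mark fell between MAF3 and MAF4.

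In the jasmonate (JA) pathway, 16 of 31 genes were marked (51.6%), near the 49.2% of all genes. The receptor gene COI1 had the strongest domain (1981 and 170 counts, log2 fold 2.46, 2.23 to 2.69). The transcription factor genes MYC3 and MYC4 had 1.99 and 2.01, and MYC2, the central regulator, was weaker at 1.21 with 618 and 126 counts in its main domain and 57.2% of the gene covered. The adaptor NINJA had 1.93, the corepressor TPL 2.09, and the coactivators PFT1 (MED25) and HAC1 2.07 and 2.25. Of the JAZ repressor genes, JAZ3, JAZ6, JAZ11, JAZ12, TIFY10B (JAZ2) and TIFY7 (JAZ9) were marked, from 0.77 to 2.04. JAZ1, JAZ4, JAZ5, JAZ7, JAZ8 and JAZ10 had no H3K36me3 domain, and JAZ1 was covered by H3K4me3 over 88.2% and by H3K27me3 over 77.6%. Of the synthesis genes, AOS (1.01) and AOC4 (1.68) were marked. OPR3, AOC1, AOC2, AOC3, LOX2 and LOX4 had no domain, and LOX3 had one of 400 bp. The storage protein genes VSP1 and VSP2, which respond to JA, lay under H3K27me3 over 100% and 87.3%. H3K27me3 touched 13 of the 31 genes (41.9%), beside 28.7% of all genes.

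Organ markers were read to check the tissue label. All 7 seed markers, storage proteins and an oleosin, lay under H3K27me3 and had no H3K36me3, and 0 of 6 pollen markers was marked. Of 8 root markers only SCR was marked (85.7% covered), by a domain of 9000 bp that held 2 genes and lay mostly outside SCR, and 7 were touched by H3K27me3. All 8 leaf markers were touched by H3K4me3, beside 63.5% of all genes, but only PSBO1 (2.17), GAPA (1.72), RCA (1.36) and LHCB3 (1.33) were marked by H3K36me3. CAB2 (LHCB1.1), LHCB2.1, RBCS1A and CA1 had no H3K36me3 domain, with H3K4me3 over 100, 100, 82.3 and 80.2% of their length. The photosystem and antenna list repeated this: 35 of 43 genes were marked (81.4%) and all 43 were touched by H3K4me3, and PSAF (2.096) and PSAH-1 (2.03) were among the strongest, while LHCB2.2 and LHCB2.3 were at 0%. LHCB and RBCS genes have near-identical copies, and how reads matching several places were handled is not given in the sources used here. Its part in these values was not tested.

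Most domains held 1 gene. Counting genes covered by at least 50%, 8490 domains (71.9%) held 1 gene, 2107 (17.8%) held 2 or more, with 4973 genes between them, and 1219 (10.3%) held none. Domains with 3 or more genes numbered 556 (4.71%) and those with 5 or more 36, with medians of 6400 and 11100 bp. The log2 fold was 1.90 over 1 gene, 1.74 over 2 or more and 1.23 over none. The domains without a gene mostly touched one: 1049 did, and 170 lay outside every protein-coding gene. The genes only partly covered had a median length of 2890 bp in the 1030 cases with 1 such gene, above the 2078 bp of all protein-coding genes, the middle of the domain lay at 30.5% of the gene, and 74.2% of these domains began within 500 bp of the gene start.

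Close neighbors whose starts faced each other (divergent pairs) lay in 1 domain more often than other close pairs. Of all 27439 neighboring pairs, 51.9% were tandem, 24.05% divergent and 24.05% convergent, and of the 2853 marked pairs inside 1 domain 37.8, 37.2 and 24.99%. At a distance of 0 to 199 bp, 554 of 564 divergent marked pairs lay in 1 domain (98.2%, Wilson 95% interval 96.8 to 99.03), against 699 of 1375 tandem pairs (50.8%, 48.2 to 53.5) and 148 of 432 convergent pairs (34.3%, 29.9 to 38.9). At 200 to 499 bp the shares were 83.0, 27.8 and 19.6%, and at 500 to 999 bp 13.9, 6.61 and 5.38%. Gaps of up to 600 bp between enriched bins were joined by the caller, and the uncovered stretches are shorter at gene starts than at gene ends, so these shares follow in part from the edges given above. Close divergent pairs were also the ones most often marked together: 72.0% of those 0 to 199 bp apart, against 50.6% of tandem and 32.2% of convergent pairs.

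**Figure D5:**
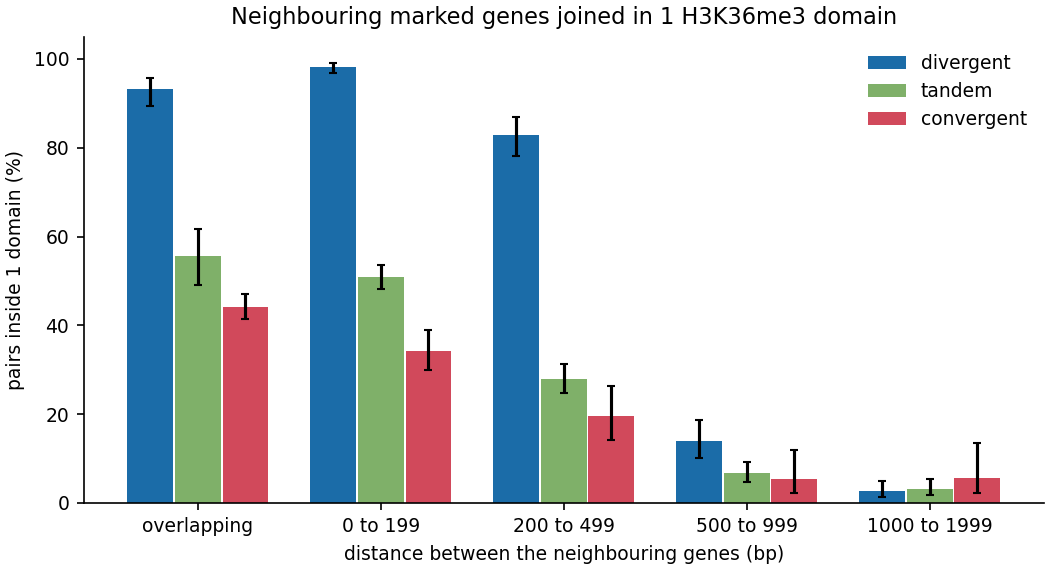
Percent of neighboring marked gene pairs that lie in 1 H3K36me3 domain (vertical axis, bars with 95% Wilson intervals over pairs) by distance between the genes in bp and by orientation. Divergent pairs stand at 98.2% for 0 to 199 bp and 83.0% for 200 to 499 bp, and no orientation is above 13.9% from 500 bp on.

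The space between the genes of 1 divergent pair is shown because 1 domain ran across it; the pair was chosen for a high log2 fold among those 100 to 250 bp apart with the motif and no other gene in the gap, and the whole gap is printed on the plus strand of TAIR10, with TGGGCC on either strand in capitals.
mMDH1 and AT1G53250, chr1:19857147-19857350: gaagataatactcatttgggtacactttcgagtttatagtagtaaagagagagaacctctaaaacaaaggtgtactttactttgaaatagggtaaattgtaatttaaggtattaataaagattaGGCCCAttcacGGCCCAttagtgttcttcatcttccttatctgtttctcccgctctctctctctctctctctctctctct
The gap, of 204 bp, parts the mitochondrial malate dehydrogenase gene mMDH1 from AT1G53250, under a domain of 3800 bp with 2269 ChIP and 232 IgG counts (log2 fold 2.21). TGGGCC occurred in the gap of 42.6% of 584 divergent pairs with both genes marked and 31.0% of 590 others, over gaps of 100 to 500 bp.

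Small nucleolar RNA (snoRNA) genes were the class of noncoding gene most often under the mark when outside protein-coding genes. snoRNAs guide modification of ribosomal RNA. Of 287 snoRNA genes, 220 were covered by at least 50% (76.7%), and of the 203 outside protein-coding genes 145 were (71.4%). The same count was 29.3% for genes annotated only as ncRNA, 12.3% for tRNA, 12.2% for miRNA, 2.48% for long noncoding RNA and 1.06% for pseudogenes. There were 23 domains that held snoRNA genes and no protein-coding gene, with 67 snoRNA genes in all and at least 2 in each. The largest cluster, at chr3:17445001-17446400, held 6 snoRNA genes and had 787 ChIP and 86 IgG counts (log2 fold 2.11). The median width of the 23 was 800 bp and their median log2 fold 1.39. Of the 170 domains away from protein-coding genes, 54 touched a pseudogene, 36 another noncoding RNA gene, 30 a long noncoding RNA gene and 18 a miRNA gene, and only 1 touched no annotated gene.

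Next to the other marks, H3K36me3 coincided with H3K4me3 and H3K9ac and stayed apart from H3K27me3. The 4 lists shared their IgG control, as IgG counts were identical in every domain with the same start and end in 2 lists (150 of 150 for H3K4me3, 176 of 176 for H3K9ac, 13 of 13 for H3K27me3). H3K4me3 domains touched 98.8% of H3K36me3 domains, and 82.7% of H3K4me3 domains were touched in turn. For H3K9ac the shares were 97.6 and 81.2%, and for H3K27me3 3.08 and 5.96%. The 147 H3K36me3 domains without H3K4me3 were weak, with a median log2 fold of 1.02, and the 364 with H3K27me3 had 1.26. By genes, H3K4me3 touched 98.4% of marked and 29.7% of unmarked genes, and H3K9ac 97.6 and 35.6% (66.1% of all). H3K27me3 touched 2.83% of marked and 53.8% of unmarked genes. Of the 15404 genes with H3K4me3 and no H3K27me3, 83.9% were marked by H3K36me3. The share was 18.6% of the 2025 genes with both, 4.98% of the 4159 with neither and 6 of the 5856 (0.102%) with H3K27me3 alone.

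H3K9ac regions that changed after JA touched H3K36me3 domains in 71.2 to 76.5% of cases, beside 81.2% of all H3K9ac domains of untreated seedlings. These lists compared Col-0 seedlings after 2 h of gaseous methyl jasmonate with control seedlings, and each list shows its own libraries. Of 2144 gains in the large-scale experiment, 75.3% touched a H3K36me3 domain of untreated seedlings, and 14.6% of H3K36me3 domains were touched. In the time course 76.5% of 3504 gains and 71.2% of 2550 losses did, which touched 23.98 and 17.2% of H3K36me3 domains. Marked genes were touched by large-scale gains in 14.5% of cases and unmarked genes in 6.04% (10.2% of all), by time-course gains in 23.5 and 9.72% (16.5% of all) and by losses in 16.8 and 8.79% (12.7% of all). The summits of 3464 binding peaks of the transcription factor MYC2, from JA-treated myc2 MYC2:MYC2-FLAG seedlings, were mostly outside: 6.09% fell in a H3K36me3 domain, a list that covers 27.6% of the genome. The shares were 14.1% in H3K4me3, 16.3% in H3K27me3 and 37.8% in H3K9ac domains, which cover 14.8, 19.7 and 24.5%.

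Promoter sequence differed between marked and unmarked genes for TGGGCC. Promoters were the 250 bases before to 50 bases after each gene start, and motifs were searched on both strands. TGGGCC occurred in 15.5% of all promoters, 23.97% of those of marked genes (Wilson 95% interval 23.3 to 24.7) and 7.21% of those of unmarked genes (6.79 to 7.65). Seen from the motif, 76.3% of genes with it were marked and 44.3% of genes without. The marked share was 72.3% with 1 match, 82.2% with 2, 82.7% with 3 and 89.9% with 4 or more. The matches of marked genes sat nearer to the gene start, 68 bases before it at the median against 117 in unmarked genes. In widely expressed genes alone, with 21 or more structures, 25.1% of marked and 8.02% of unmarked genes had the motif.

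The other 4 strings differed less. TATAAA occurred in 52.1% of all promoters, 48.5% of marked and 55.7% of unmarked genes. CACGTG occurred in 7.68, 9.32 and 6.09%, AAACCCTA in 6.22, 6.62 and 5.84%, and GAGAGA in 29.2, 29.4 and 28.99%. Marked families were not alike in their promoters. TGGGCC occurred in 53.8% of ribosomal protein genes, 46.8% of proteasome genes and 11.6% of photosystem and antenna genes, AAACCCTA in 39.3% of ribosomal protein genes and in 0% of photosystem genes, and CACGTG in 3.61% and 41.9%.

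Along the genome the mark followed the genes. The 5 chromosomes had between 24.5 and 28.8% of their bases in domains and between 46.2 and 50.5% of their genes marked, chromosome 2 lowest in both. In windows of 1 Mb with at least 200 genes 50.7% of genes were marked (window range 28.6 to 65.2%), and in the 15 windows with under 100 genes 26.4% (0 to 40%). Chromosome 3 between 12000001 and 13000000 had 0 of 30 genes marked. On chromosome 2 between 3000001 and 4000000, where a copy of mitochondrial DNA is inserted, 4 of 121 genes were marked (3.31%) and 1.56% of bases lay in domains.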

How the data were processed

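Untreated Col-0 seedlings were profiled by PHILO ChIP-seq. Per the paper's methods and the submitters' processing notes, reads were mapped by the authors to the TAIR10 genome (Bowtie2 2.4.1), who merged the 3 libraries of a mark and called domains against IgG with epic2, which the notes list as SICER (0.0.52). Duplicate handling is not given in the sources used here. The deposited tables give read counts of ChIP and IgG per domain, a p-value and FDR, a log2 fold scaled by library totals, and a score equal to 100 times it. For MYC2, the authors' MACS2 (2.2.7.1) peaks give a fold enrichment (a ratio) and −log10 p and q; only summit positions were used. The authors' own enrichment columns are part of the domain lists and are printed as deposited.

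All nuclear rows were kept. Genes, biotypes, expression notes and sequences came from the RefSeq annotation of TAIR10. A gene was marked when domains covered at least 50% of its span. Shares carry Wilson, and counts of named domains Clopper-Pearson, 95% intervals. These count genes or reads, not samples. Depth was 17817125 ChIP and 2339232 IgG reads in the domains. Named were the 10 domains of highest log2 fold with at least 20 IgG counts, the 5 with most ChIP counts per kb, the 5 widest, the 5 strongest of the median width and the 5 weakest; all members of the H3K36me3 machinery and FLC lists; and in each other list the 3 strongest members and up to 3 unmarked ones. Other names, such as single JA pathway, actin and snoRNA genes, were chosen after their values were seen. JMJ13, SPT6L and JAZ13 were not matched. Members and gene lists were chosen with earlier results of these data known. Alternatives were other thresholds, overlaps and gene sets. The sequence of 1 gap between genes is not reported here. The 4 lists of the remaining single H3K9ac libraries were not used here. Scripts were tested on simulated data and run in Python (3.11.15) with numpy (2.4.6), pandas (2.3.3), scipy (1.17.1) and matplotlib (3.10.9).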

Additional observations from a re-analysis of the deposited data

How the results depend on the processing

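No paired analysis was possible because the libraries of each list were merged before calling and the columns carry no replicate numbers; for the same reason no library could be left out. Of the values recomputed outside the gene lists, 46 stayed within their interval or, for the number of domains and the covered length, which have none, within 1.5 times, 23 moved and 0 changed sign. With domains of log2 fold at least 1, 47.8% of genes were marked, the median start edge was 104 bp and the end edge −696 bp from the gene end, 73.7% of domains held 1 gene and 18.7% held 2 or more; H3K4me3 touched 99.3% (78.7% of its own domains), H3K9ac 98.2% (77.8%) and H3K27me3 2.30% (4.18%). Reading domain ends as exclusive gave a median width of 2199 bp. Counting genes touched by 1 bp gave 54.6% marked, 76.8% of domains with 1 gene and 21.7% with 2 or more, and asking for 80% coverage gave 20.8% marked. Genes of at least 2 kb with no other gene within 1 kb had a start edge of 134 bp and an end edge of −868 bp. Overlap of at least 50% of the H3K36me3 domain left 42.4% with H3K4me3, 66.3% with H3K9ac and 2.23% with H3K27me3. The H3K9ac list of replicate 1 gave 97.9 and 80.5%. Asking for an FDR under 0.001 or a width of 600 bp moved none of these values beyond its interval. Among gene lists, restricting to middle gene lengths moved 11 shares, beside 55.2% of all genes of those lengths. Upward moved RING and U-box genes (59.3%), F-box genes (31.1%), ribosomal proteins (97.6%) and secreted peptides (4.76%, 1 of 21 genes). Proteasome, nuclear pore and chromatin remodelling genes rose to 100%, on 32, 5 and 2 genes. Downward moved RNA helicases (66.7%), receptor-like kinases (27%), NLR immune receptors (16.7%) and kinesins and myosins (45.9%). Precision is limited by the 200 bp bins and the IgG control, which is taken to be 1 library.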

Other observations

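A group of 763 genes annotated as expressed in 22 or more plant structures was not marked by H3K36me3, out of 6900 such genes, of which 6137 were marked (88.9%). Their median length, 2549 bp, was close to the 2678 bp of the marked ones. H3K4me3 touched 84.5% of them and H3K9ac 85.7%, and H3K27me3 touched 36.7%, against 1.76% of the marked genes of this breadth. In the opposite direction, 793 genes annotated to 10 structures or fewer were marked, out of 3604, with H3K4me3 on 96.0% and H3K27me3 on 4.04% of them. Both groups rest on an annotation of expression gathered elsewhere, not on RNA of these seedlings.

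There were 382 genes that were marked by H3K36me3 and also touched by H3K27me3, and H3K4me3 touched 98.4% of them. A whole seedling mixes cells, so marks on the same allele and marks in different cells cannot be told apart.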
